A study of Caenorhabditis elegans with 6 samples.

Results

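The cytochrome P450 genes of Caenorhabditis elegans that carry a cyp name were followed in whole L4 larvae fed either an empty vector or an elt-2 RNAi construct. Members were found by pairing the sequence name of each gene in the count table with its WormBase symbol in the WBcel235 annotation and keeping every symbol that starts with cyp and a number. This gave 72 members of 19512 genes in the table, in 15 numbered families and 25 subfamilies (a number and a letter, such as cyp-35A). The annotation holds 74 such genes, and 2 of them, cyp-35A1 and cyp-35B3, were not matched to a row and were not analysed here. The rule used names and no measured value, though it was set with earlier results of these data known.

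Each library came from one synchronized culture of wild-type N2 worms, about 10000 animals, that were placed on the RNAi bacteria as L1 larvae and collected 28 hours later at the L4 stage. The control group (3 libraries, A, B and C) received bacteria with the empty vector, and the elt-2 RNAi group (3 libraries, A, B and C) received bacteria expressing double-stranded RNA against elt-2, a gene for a GATA factor made in intestinal cells. Both groups were of the same strain and age, and no mutant or transgene was used. RNA was taken from whole worms, and in such samples fewer cells of a type and less RNA per cell cannot be told apart. The study states that the replicates were biological.

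Cytochrome P450 enzymes hold a heme group and insert an oxygen atom into a lipid, steroid or foreign compound, using electrons passed on from NADPH by cytochrome P450 reductase or, for some steps, by cytochrome b5. In C. elegans the family is expanded in arrays of neighbouring copies. Many of its members are expressed in the intestine, the main site of fat storage and detoxification, and several are induced by foreign compounds. Others have set tasks in lipid signalling, such as making eicosanoids or the lipids of the eggshell.

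The elt-2 level went against the labels. In CPM after TMM scaling (reads for a gene scaled to a common library size that is adjusted so that most genes match between libraries), elt-2 was at 4.09, 1.54 and 3.32 in controls A, B and C, and at 33.4, 5.82 and 179 in the libraries labelled as elt-2 RNAi A, B and C. Every library labelled as elt-2 RNAi was therefore above every control library, with a log2 change of 4.60 ± 1.16 (SE, as after every ± sign here, edgeR adjusted p = 0.0395) and an exact two-sided permutation p of 0.1, the smallest that 3 against 3 libraries allow. Without control A the edgeR adjusted p was 0.104, and without elt-2 RNAi C it was 0.135. Each direction given for a cyp gene is therefore one between labelled groups.

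Depth also moved with the labelled group. The control libraries held 16568515 to 24168901 counts and the libraries labelled as elt-2 RNAi 29578175 to 35047530, and TMM factors ran from 3.47 in control A down to 0.491 in elt-2 RNAi C. The median count of a tested gene ran the other way. It was 250, 129 and 95 in controls A, B and C and 72, 72 and 61 in RNAi libraries A, B and C. Whole-worm tissue markers were detected for intestine, hypodermis, muscle, neurons and germ line, and the summed level of 5 sperm genes was 120 to 821 CPM in the controls and 1131 to 1712 CPM in the libraries labelled as elt-2 RNAi. The summed level of 6 germ line genes was 141 to 364 and 546 to 788 CPM. The genes of that list did not move together, since 3 of the 6 had a log2 change below 0. By edgeR glh-1 was higher (log2 change 2.46, adjusted p = 0.0557) and glp-1 lower (-1.35, adjusted p = 0.045). The larval cuticle collagen gene dpy-7 was at 12.7 and 17 CPM in control A and B and at 0.128 to 0.349 CPM in the other 4 libraries. It did not pass the filter on low counts and was not tested. The collagen gene rol-6 of the same hypodermis list ran the other way. It was at 0.719, 2.01 and 6.59 CPM in controls A, B and C and at 8.25, 6.5 and 8.61 CPM in RNAi libraries A, B and C. Of the 4 genes of that list that were tested, 2 had a log2 change below 0. The part of these differences in the results for the cyp genes was not tested.

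The cyp genes were a small share of the RNA in these larvae. Of the 72 members, 68 had at least 1 count, 26 had 100 or more counts over all libraries together, 21 had between 1 and 10, and 4 (cyp-13A4, cyp-13A11, cyp-13A12 and cyp-33C6) had 0 in every library. A count of 0 allows a level of up to 0.0522 CPM in control A and up to 0.174 CPM in elt-2 RNAi C, the lowest and the highest of these limits, which cover counting error only. The family took 0.0362% of all counts in control A, 0.00918% in control B and 0.00724% in control C, against 0.00408%, 0.0051% and 0.0036% in RNAi libraries A, B and C. On the TMM scale the summed cyp level was 105, 67.5 and 74.4 CPM in the controls and 58.5, 80.4 and 73.5 CPM in the libraries labelled as elt-2 RNAi, so the groups were apart in share of counts and overlapped after scaling.

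Of the members, 26 passed the filter on low counts and entered the test with 11474 genes in all. They covered 18 of the 25 subfamilies. Their median total was 295 counts, against 796 for all tested genes, and 13 of them had 10 or more counts in every library. The other 46 members did not pass the filter and were not tested, and a member with counts in only 1 group could pass the filter through that group. The filter did not follow total counts alone. cyp-37B1, with 528 counts, was not tested, and cyp-31A5, with 55, was. Of the tested members 14 lie on chromosome V, which holds 39 of the 72.

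Per kilobase of the longest annotated transcript, the most abundant member was cyp-37A1, at a mean of 7.64 CPM per kb over the 6 libraries. That rank came from the libraries labelled as elt-2 RNAi (11.7 CPM per kb), while in the controls cyp-31A2 (6.32) and cyp-35A2 (4.35) had higher means per kb than cyp-37A1 (3.57). Over all 6 libraries it was followed by the mitochondrial-type P450 gene cyp-44A1 at 5 and by cyp-31A2, whose product helps to make lipids of the eggshell permeability barrier, at 4.28. Next in this order of levels were cyp-35A2 at 2.81, cyp-31A3 at 2.7 and cyp-33C8 at 2.68 CPM per kb. The last 3 differed by less than the spread between libraries, since cyp-35A2 alone ran from 0.097 to 12 CPM. Because 3SEQ reads only the 3′ ends of transcripts, the study took its counts as insensitive to gene length, and on CPM alone cyp-33C8 came before cyp-35A2 and cyp-31A3.

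**Figure D1:**
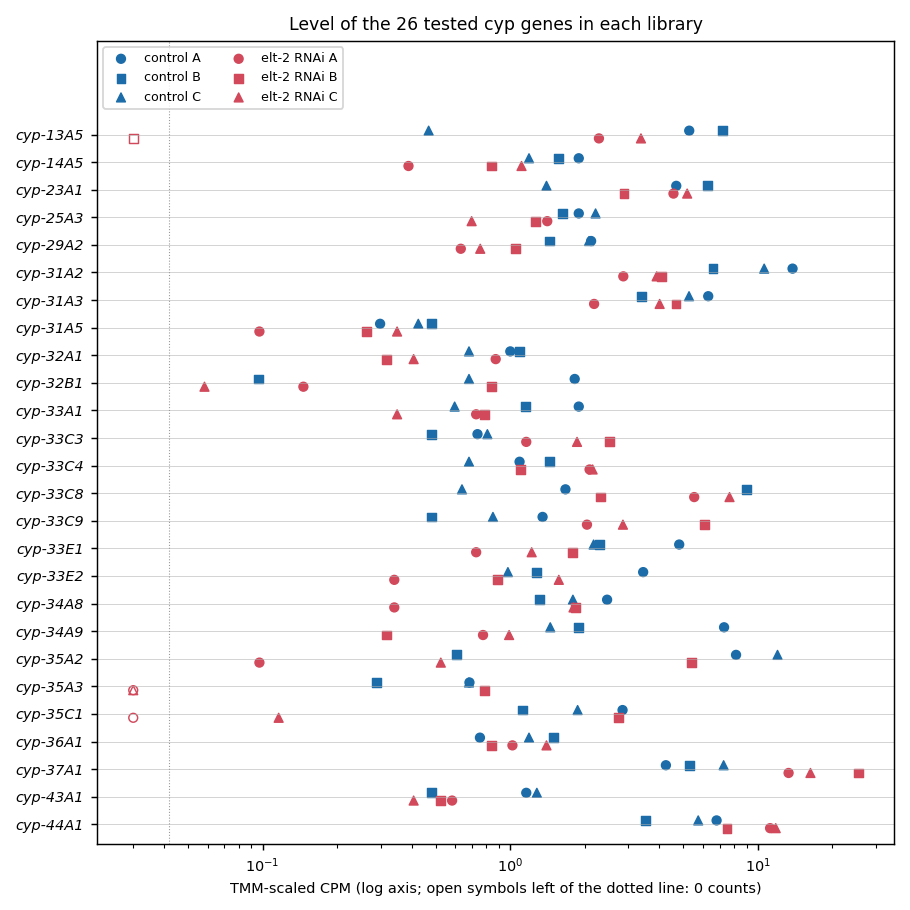
TMM-scaled CPM (log axis) of each of the 26 tested cyp genes, with 1 symbol for each library, controls in blue and libraries labelled as elt-2 RNAi in red. The groups are apart for genes such as cyp-31A2 and cyp-37A1. For cyp-35A2, cyp-35A3 and cyp-35C1 the square symbols (the B libraries) are the lowest control and the highest library labelled as elt-2 RNAi.

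Between the labelled groups, cyp-34A9, cyp-31A2 and cyp-29A2 were lower in the libraries labelled as elt-2 RNAi, and cyp-37A1, cyp-33C9 and cyp-33C3 were higher, at an edgeR quasi-likelihood adjusted p under 0.1 (Benjamini-Hochberg over all tested genes). These 3 lower members were 11.5% of the 26 tested, while 15.9% of all tested genes were called lower. The 3 higher members were likewise 11.5%, with 13% of all genes called higher. Neither share was above that of all genes. Its median log2 change was -0.86, with 19 of 26 values below 0, against a median of -0.12 over all genes. Among the 13 members with 10 or more counts in every library the median was -0.11, against -0.07 for all genes under that filter.

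The calls depended on how libraries were scaled. With library size alone, the scale the study describes, 18 members were called lower and 0 higher by edgeR, where 52.3% of all genes were called lower and 3.84% higher. On that scale 0 members were higher at an unadjusted p under 0.05 as well, while DESeq2 with its own size factors called 4 lower and 4 higher. The scaling moved the median of all tested genes to -1.76 and that of the cyp genes to -2.54, so the gap between the medians was -0.78 there and -0.74 with TMM. When elt-2 RNAi C was left out, edgeR called 0 members, with 3 lower and 3 higher at an unadjusted p under 0.05. The shares of all tested genes called in that fit and with DESeq2 were not counted.

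**Figure D2:**
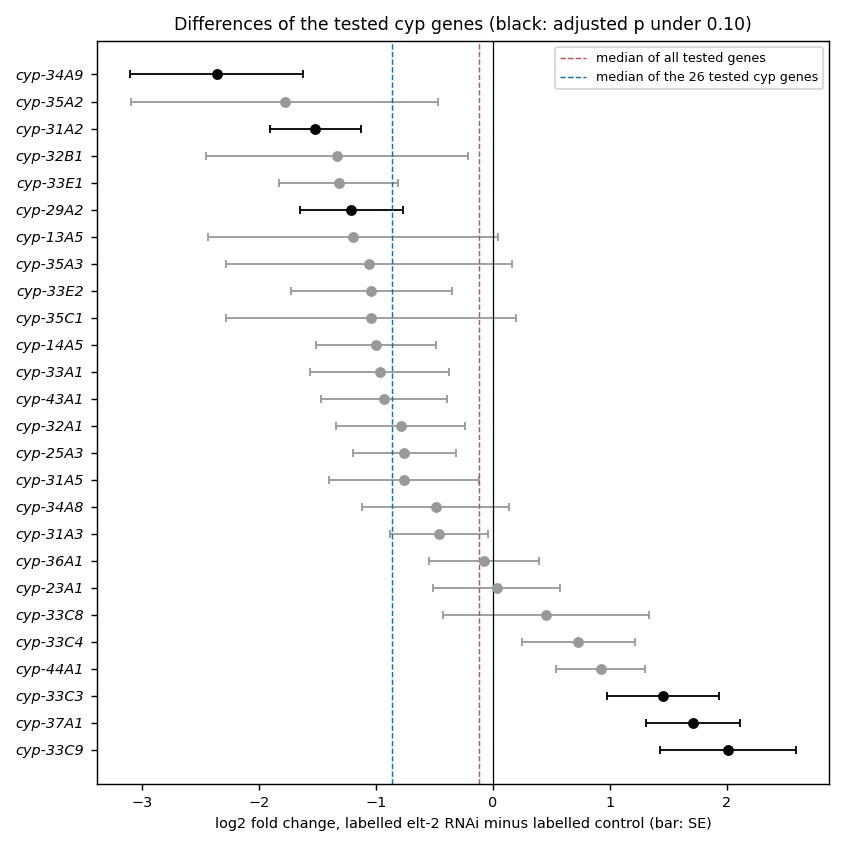
Log2 change (elt-2 RNAi minus labelled control, x axis, bars show the SE) of the 26 tested cyp genes, in order of size, with the genes at an edgeR adjusted p under 0.10 in black. cyp-34A9 is at -2.36 and cyp-33C9 at 2.01, and the dashed lines mark the median of the cyp genes (-0.86) and of all tested genes (-0.12).

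The clearest member on the lower side was cyp-31A2 (H02I12.8, chromosome IV, 11403961 to 11406091, + strand). With cyp-31A3 and the reductase EMB-8 it is needed for lipids that seal the eggshell. It was at 13.8, 6.59 and 10.6 CPM in controls A, B and C (788, 206 and 249 counts) and at 2.86, 4.09 and 3.9 CPM in RNAi libraries A, B and C (59, 78 and 67 counts). Every control library was above every library labelled as elt-2 RNAi, with a log2 change of -1.52 ± 0.39 (SE, edgeR adjusted p = 0.0408). The call was kept in 3 of 6 fits that left out 1 library, in which the value ran from -1.81 to -1.29 and the edgeR adjusted p from 0.0451 to 0.169.

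Its near-identical copy cyp-31A3 (Y17G9B.3, chromosome IV, 4761049 to 4762885, + strand) did not pass the test. It had 6.3, 3.39 and 5.27 CPM in the controls and 2.18, 4.67 and 4.01 CPM in the libraries labelled as elt-2 RNAi, so the groups overlapped (log2 change -0.46 ± 0.42, edgeR adjusted p = 0.431). Reads shared by such copies can be lost or split where only uniquely mapped reads are kept, so the balance between cyp-31A2 and cyp-31A3 is uncertain. cyp-31A5 was far lower, at 0.298, 0.48 and 0.425 CPM in the controls and 0.097, 0.262 and 0.349 CPM in the other group (log2 change -0.76 ± 0.64, edgeR adjusted p = 0.402). The 3 genes summed to 20.4, 10.5 and 16.3 CPM in the controls and to 5.14, 9.02 and 8.26 CPM in the libraries labelled as elt-2 RNAi, which did not overlap.

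A related row outside the family was the pseudogene C01F6.3, which RefSeq names cyp-31A1 and WormBase gives no cyp symbol (chromosome IV, 9101773 to 9103851, - strand). It was chosen after its values were seen. It had 3, 6 and 9 counts in controls A, B and C, and 321, 250 and 374 in RNAi libraries A, B and C, a log2 change of 6.43 ± 0.70 (SE, edgeR adjusted p = 0.00477). All 3 libraries labelled as elt-2 RNAi were far above the controls, also in each of the 6 fits without 1 library (5.74 to 7.27) and with library size alone (5.16). Added to the 3 cyp-31A genes, it brought the sums to 20.5, 10.6 and 16.7 CPM in the controls and to 20.7, 22.1 and 30 CPM in the other group. Whether reads of the near-identical copies passed between these rows in counting was not tested. The sperm phosphatase gene gsp-3, from the list of sperm genes, was at 1.79, 5.02 and 4 CPM in the controls and at 68.3, 60.5 and 84.5 CPM in the libraries labelled as elt-2 RNAi (log2 change 4.31, edgeR adjusted p = 0.00477). It had the largest change of the 5 sperm genes and was the only 1 called by edgeR. The others ran from 0.87 (gsp-4) to 1.64 (msp-31), with edgeR adjusted p from 0.137 to 0.18. DESeq2 called all 5 higher, and its share over all tested genes was not counted. In all 5 every library labelled as elt-2 RNAi was above every control, as in 22.5% of all tested genes.

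On the higher side, cyp-37A1 (F01D5.9, chromosome II, 14013819 to 14016965, - strand) had the most counts of the family over the 6 libraries together, though cyp-31A2 had more in each control. It was at 4.25, 5.28 and 7.27 CPM in the controls and at 13.3, 25.4 and 16.3 CPM in the libraries labelled as elt-2 RNAi, from 242, 165 and 171 counts and 275, 484 and 280 counts. The groups did not overlap, and the log2 change was 1.71 ± 0.40 (SE, edgeR adjusted p = 0.0325), called in 4 of 6 fits without 1 library. With library size alone it was 0.21 (edgeR adjusted p = 0.815). The 3′ end of cyp-37A1 overlaps that of F01D5.8 on the other strand, which was also higher, at 1.89, 7.13 and 4.38 CPM in the controls and 25.3, 17.4 and 31.3 CPM in the other group (log2 change 2.47, edgeR adjusted p = 0.0273). The use of strand in counting is not given in the sources used here, so reads of the overlap cannot be told apart.

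The cyp-37 family also holds cyp-37B1 (447, 5 and 73 counts in controls A, B and C, against 0, 2 and 1 in RNAi libraries A, B and C). It did not pass the filter on low counts, and it was the untested member with the most counts. Control A and C were far above the other 4 libraries, and control B, at 0.16 CPM, was close to elt-2 RNAi B at 0.105 CPM. With no filter it was called lower (edgeR adjusted p = 0.0228). cyp-37B1 overlaps F28G4.2 in the annotation.

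The cyp-34A genes form an array of 6 on chromosome V (cyp-34A5 to cyp-34A10, 3955701 to 3972991), with a further pair, cyp-34A1 and cyp-34A2, elsewhere on that chromosome. cyp-34A9, also named dod-16 for its place downstream of the FOXO factor DAF-16, had 416, 59 and 34 counts in the controls and 16, 6 and 17 counts in the libraries labelled as elt-2 RNAi. In CPM it was at 7.3, 1.89 and 1.45 against 0.776, 0.315 and 0.989, so the groups did not overlap and control A stood high. The log2 change was -2.36 ± 0.74 (SE, edgeR adjusted p = 0.0662), and without control A it was -1.38 (edgeR adjusted p = 0.166). Its neighbour cyp-34A8, which starts within 10 kb of it, was at 2.46, 1.31 and 1.79 CPM against 0.34, 1.83 and 1.8 CPM. Those values overlapped (log2 change -0.49 ± 0.63, edgeR adjusted p = 0.584), so 1 of the 2 tested copies of this array was called.

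cyp-29A2 was called lower on fewer counts. It had 121, 45 and 49 counts in the controls and 13, 20 and 13 counts in the libraries labelled as elt-2 RNAi, or 2.12, 1.44 and 2.08 CPM against 0.631, 1.05 and 0.756 CPM. The groups did not overlap (log2 change -1.21 ± 0.44, edgeR adjusted p = 0.0904), and the call held in 1 of 6 fits without 1 library. Its relative cyp-29A3, whose product makes eicosanoids from eicosapentaenoic acid, was untested with 11, 2 and 15 counts against 2, 4 and 2 counts.

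All 4 tested members of the cyp-33C subfamily had a log2 change above 0 with TMM scaling, and 2 of them were called higher. cyp-33C9 was at 1.35, 0.48 and 0.851 CPM in the controls and at 2.04, 6.08 and 2.85 CPM in the libraries labelled as elt-2 RNAi (77, 15 and 20 counts against 42, 116 and 49), a log2 change of 2.01 ± 0.58 (SE, edgeR adjusted p = 0.0533). cyp-33C3 was at 0.737, 0.48 and 0.808 CPM against 1.16, 2.52 and 1.86 CPM, a log2 change of 1.45 ± 0.48 (SE, edgeR adjusted p = 0.0761). The groups did not overlap for either gene, and control B was the lowest and elt-2 RNAi B the highest library for both. Without both B libraries the log2 changes were 1.07 (edgeR adjusted p = 0.25) and 0.9 (edgeR adjusted p = 0.339), and with library size alone that of cyp-33C3 turned to -0.25.

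The other tested cyp-33C genes overlapped between groups. cyp-33C4, which lies next to cyp-33C3 in an array of 5 on chromosome V, was at 1.09, 1.44 and 0.681 CPM against 2.09, 1.1 and 2.15 CPM (log2 change 0.73, edgeR adjusted p = 0.291). cyp-33C8 was at 1.67, 9.02 and 0.638 CPM in the controls and at 5.53, 2.31 and 7.68 CPM in the libraries labelled as elt-2 RNAi. There control B was the highest and elt-2 RNAi B the lowest of its group, and the log2 change was 0.45 ± 0.88 (SE, edgeR adjusted p = 0.723). It was 2.43 without both B libraries (edgeR adjusted p = 0.0813). As these libraries ran against the group difference of cyp-33C8, that p-value gives no support for a difference. Together the 11 cyp-33C genes summed to 6.72, 13.4 and 3.66 CPM and to 12, 12.8 and 15.4 CPM.

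In the other tested cyp-33 subfamilies the values were below 0 and none passed the test with TMM scaling. cyp-33E1 was at 4.81, 2.3 and 2.17 CPM in the controls and at 0.728, 1.78 and 1.22 CPM in the libraries labelled as elt-2 RNAi. These groups did not overlap, and the log2 change was -1.32 ± 0.51 (SE, edgeR adjusted p = 0.107), just short of the threshold. It was called lower by DESeq2 (adjusted p = 0.0994), by edgeR with 10 or more counts in every library (adjusted p = 0.0626), by scaling that left out the 3% most abundant genes (adjusted p = 0.0434) and with library size alone (adjusted p = 0.0239). By edgeR cyp-33E1 was not called with no filter (adjusted p = 0.137), with the replicate letter as a block (0.243) or without both B libraries (0.119). Of the 6 fits without 1 library it was called in 1. cyp-33E2, another enzyme of eicosanoid synthesis, was at 3.44, 1.28 and 0.978 CPM against 0.34, 0.891 and 1.57 CPM, which overlapped (log2 change -1.04 ± 0.69, edgeR adjusted p = 0.291). cyp-33A1 had a log2 change of -0.97 ± 0.59 (SE, edgeR adjusted p = 0.252).

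The cyp-35 genes, which respond to foreign compounds and have been linked to fat storage, differed widely within the labelled groups. cyp-35A2 (C03G6.15, chromosome V, 7362319 to 7364182, - strand) had 465, 19 and 281 counts in controls A, B and C, and 2, 103 and 9 in RNAi libraries A, B and C. In CPM this was 8.16, 0.608 and 12 against 0.097, 5.4 and 0.524. Control B was thus at the level of elt-2 RNAi C, and elt-2 RNAi B lay between control B and control A, so the groups overlapped and the log2 change of -1.78 had an SE of 1.31 (edgeR adjusted p = 0.336). Without both B libraries it was -5.1 (edgeR adjusted p = 0.0497). That fit drops the libraries that ran against the group difference of this gene, so its p-value gives no support for a difference.

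Among all 8 cyp-35 genes, 4 had control B lowest of the controls and RNAi B highest of its group, namely cyp-35A2, cyp-35A3, cyp-35A5 and cyp-35C1. cyp-35C1 had 162, 35 and 44 counts in the controls and 0, 52 and 2 counts in the other group (log2 change -1.04 ± 1.24, edgeR adjusted p = 0.556). cyp-35A3 had 39, 9 and 16 against 0, 15 and 0 counts (log2 change -1.06 ± 1.22, edgeR adjusted p = 0.542). In both, elt-2 RNAi B was inside or above the range of the controls while elt-2 RNAi A and C were at or near 0. The untested cyp-35A5 had 10, 4 and 15 against 1, 11 and 0 counts. Without that order were cyp-35A4, with 1, 3 and 0 counts against none, and cyp-35B1, also named dod-13 as a gene downstream of DAF-16, with 29, 2 and 8 against 2, 1 and 0 counts. The 8 cyp-35 genes summed to 12.5, 2.33 and 15.7 CPM in controls A, B and C and to 0.243, 9.54 and 0.64 CPM in RNAi libraries A, B and C. cyp-35A3 and cyp-35A4 are neighbours on chromosome V (4022609 to 4033446), as are cyp-35A5, cyp-35B1 and cyp-35B2 (3936326 to 3944523), and only the first gene of each run had that order.

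The place of the B libraries within their own groups was counted over all tested members. This order does not require the groups to cross. cyp-31A2, cyp-29A2, cyp-33C3 and cyp-33C9 had it although their groups did not overlap. In 10 of 26 tested members (38.5%) control B was the lowest control and elt-2 RNAi B the highest library labelled as elt-2 RNAi, and in 6 (23.1%) the reverse held. Over all tested genes these shares were 20.1% and 15.3%. Letters C and A gave either order in 9 members each (34.6%), against 16.5% and 34.8% of all genes. The members with B high in control and low in elt-2 RNAi were cyp-13A5, cyp-23A1, cyp-32A1, cyp-33C4, cyp-33C8 and cyp-36A1.

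The intestinal marker list gave some of the same order. Of its 10 genes, 5 had control B lowest and elt-2 RNAi B highest and 2 had the reverse. Gut esterase ges-1 was at 7.91, 2.43 and 6.3 CPM against 1.41, 4.61 and 1.34 CPM, and the metallothionein gene mtl-2 at 52.3, 3.39 and 717 CPM against 36.2, 1053 and 58.7 CPM. The list summed to 152, 112 and 876 CPM in the controls and 374, 1470 and 435 CPM in the libraries labelled as elt-2 RNAi, with none of its genes at 0. By the test 1 gene was lower (elt-7) and 2 were higher (act-5 and pept-1). These were 10% and 20% of the list, against 15.9% and 13% of all tested genes. The part of this order in the values of the cyp genes was not tested.

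**Figure D3:**
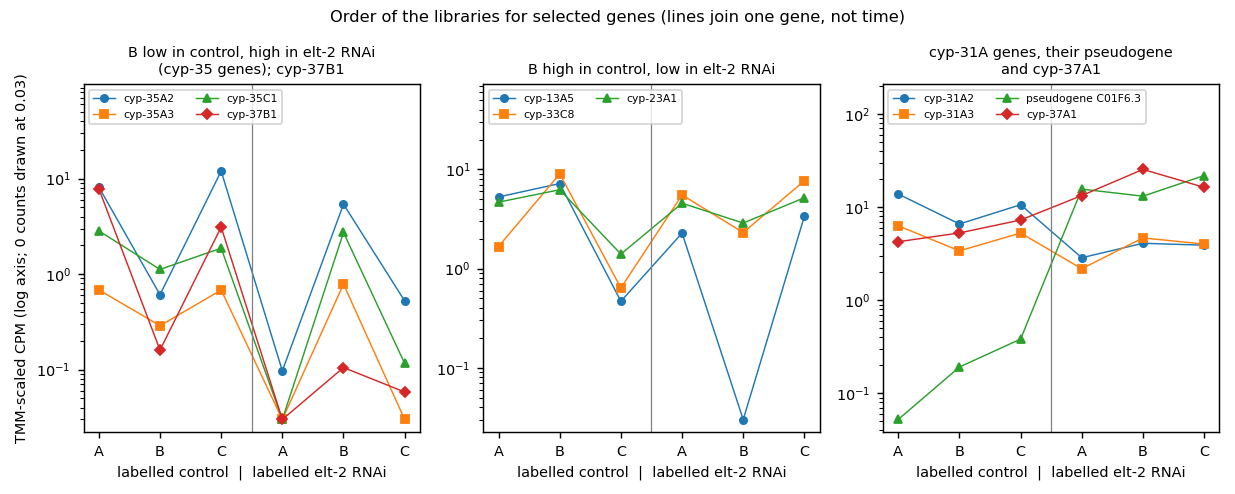
TMM-scaled CPM (log axis, 0 counts drawn at 0.03) by library for 3 sets of genes, with lines that join the values of 1 gene. In the left panel control B is the lowest control and elt-2 RNAi B the highest of its group for cyp-35A2, cyp-35A3 and cyp-35C1. In the middle panel cyp-13A5, cyp-33C8 and cyp-23A1 have the reverse order. In the right panel cyp-31A2 is lower and cyp-37A1 and the pseudogene C01F6.3 are higher in all 3 libraries labelled as elt-2 RNAi.

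The cyp-13A subfamily was the largest array, with 8 genes on chromosome II (9779181 to 9807569), and 86.4% of the counts in that array (642 of 743) came from cyp-13A5. That gene had 301, 225 and 11 counts in controls A, B and C, and 47, 0 and 58 in RNAi libraries A, B and C. Control C and elt-2 RNAi B were the low libraries, the groups overlapped, and the log2 change was -1.20 ± 1.24 (SE, edgeR adjusted p = 0.492). Its neighbour cyp-13A7, known as inducible by foreign compounds, had 15 counts in control A and none elsewhere. Elsewhere in the subfamily cyp-13A12, which has a part in the response to reoxygenation, had no counts.

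Several single genes of other families overlapped or fell short of the threshold. cyp-44A1 was at 6.81, 3.52 and 5.74 CPM in the controls and at 11.2, 7.5 and 11.8 CPM in the libraries labelled as elt-2 RNAi, without overlap (log2 change 0.92 ± 0.38, edgeR adjusted p = 0.122). Its 3′ end overlaps npp-24 on the same strand, a nuclear pore gene with a log2 change of -0.58 (edgeR adjusted p = 0.212). cyp-36A1, which acts downstream of HIF-1 in neurons, was at 0.754, 1.5 and 1.19 CPM against 1.02, 0.839 and 1.4 CPM (log2 change -0.08 ± 0.47, edgeR adjusted p = 0.91). cyp-23A1 was at 4.68, 6.24 and 1.4 CPM against 4.56, 2.88 and 5.18 CPM (log2 change 0.03 ± 0.54, edgeR adjusted p = 0.971). These last 2 genes showed no difference beyond their spread.

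cyp-14A5 and cyp-25A3 lay lower in the libraries labelled as elt-2 RNAi without passing the test. cyp-14A5 was at 1.89, 1.57 and 1.19 CPM against 0.388, 0.839 and 1.11 CPM (log2 change -1.0 ± 0.51, edgeR adjusted p = 0.188), and cyp-25A3 at 1.89, 1.63 and 2.21 CPM against 1.41, 1.26 and 0.698 CPM (log2 change -0.76 ± 0.44, edgeR adjusted p = 0.229). In both the groups did not overlap. cyp-14A3, another gene that foreign compounds induce, had 2 counts in control B and none elsewhere. cyp-42A1 had 10, 6 and 0 counts in the controls and 1, 0 and 0 counts in the other group.

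The remaining tested members were cyp-32A1, cyp-32B1 and cyp-43A1, with log2 changes of -0.79, -1.33 and -0.93 and none called. In all, 6 tested members had every control above every library labelled as elt-2 RNAi and 4 had the opposite, while 24.2% and 22.5% of all tested genes did so in each direction. Of the 46 untested members, 32 had a higher mean in the controls. The same share over all untested genes was not counted. With no filter on low counts the median log2 change was -0.97 for the cyp genes and -0.31 over all genes.

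**Figure D4:**
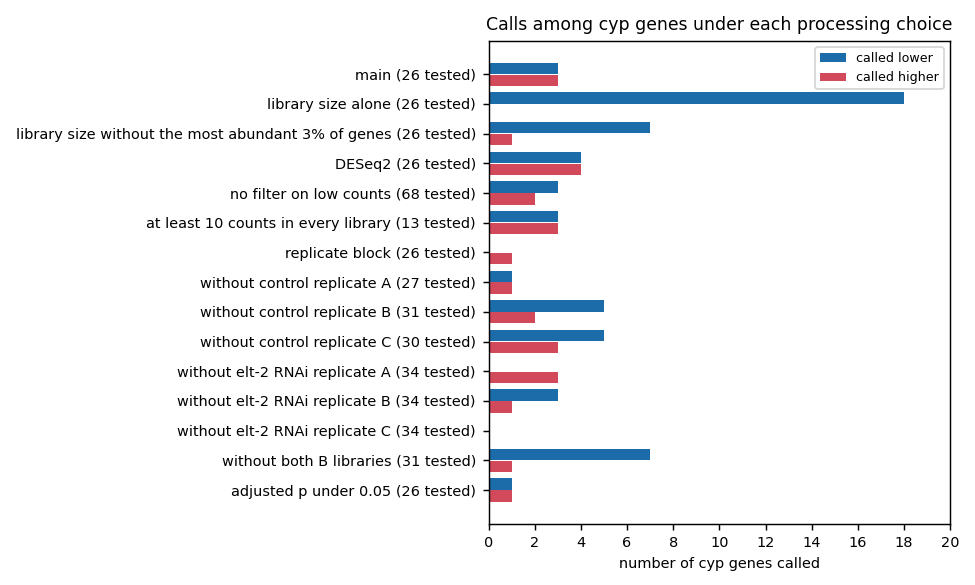
Number of cyp genes called lower (blue) and higher (red) in the libraries labelled as elt-2 RNAi under each processing choice (y axis, with the number of members tested). The main fit calls 3 in each direction, library size alone calls 18 lower and 0 higher, and 0 genes are called without elt-2 RNAi replicate C. The share of all tested genes called was counted only for the main fit and for library size alone.

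Genes that work with the P450 enzymes were taken from lists fixed by function, with earlier results of these data known. For comparison with each list, edgeR called 15.9% of all tested genes lower and 13% higher with TMM scaling. With library size alone these shares were 52.3% and 3.84%. For DESeq2 and the fits without 1 library they were not counted. Of 4 genes for electron transfer, 1 was lower and 0 higher, by edgeR, by DESeq2 and at an unadjusted p under 0.05. With library size alone 3 were lower, and without elt-2 RNAi A or without elt-2 RNAi C edgeR called 0, with 1 lower at an unadjusted p under 0.05. emb-8, the NADPH cytochrome P450 reductase gene, was at 10.7, 6.4 and 9.78 CPM in the controls and 4.95, 5.77 and 6.17 CPM in the libraries labelled as elt-2 RNAi. Those values did not overlap, and the log2 change was -0.67 ± 0.34 (SE, edgeR adjusted p = 0.185). The cytochrome b5 gene cytb-5.2 was at 33.9, 11.5 and 16 CPM against 5.39, 8.86 and 5.06 CPM, lower with a log2 change of -1.67 ± 0.49 (SE, edgeR adjusted p = 0.0574). cytb-5.1 was not called, with a log2 change of -0.01 ± 0.55 (SE, edgeR adjusted p = 0.985).

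Of 11 genes for factors that sense lipids and foreign compounds, 9 were tested. Of these 5 were lower (55.6%, against 15.9% of all tested genes) and 1 higher (11.1%, against 13%). The nuclear hormone receptor gene nhr-8 was at 4.49, 1.82 and 1.49 CPM against 0.582, 0.524 and 0.465 CPM (log2 change -2.31 ± 0.55, edgeR adjusted p = 0.035). Lower too were nhr-49 (-1.40), a receptor of fat metabolism, its Mediator partner mdt-15 (-1.24), nhr-86 (-1.21) and the hypoxia factor hif-1 (-0.87), on the log2 scale and with edgeR adjusted p from 0.0665 to 0.0962. nhr-114 was higher, at 0.737, 0.991 and 2.89 CPM against 3.93, 16.4 and 8.26 CPM (log2 change 2.65 ± 0.70, edgeR adjusted p = 0.0438). Of the 6 fits without 1 library, hif-1 was called in 0, nhr-86 in 1, nhr-49, mdt-15 and nhr-114 in 2 each and nhr-8 in 4. Without elt-2 RNAi A the list had 1 lower and 1 higher, and without elt-2 RNAi C it had 0 and 0 by edgeR (1 and 1 at an unadjusted p under 0.05). With library size alone 7 were lower and 0 higher, at an unadjusted p under 0.05 too, and 52.3% of all tested genes were called lower there.

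daf-9, the P450 of dafachronic acid synthesis, has no cyp symbol and was not a member. It had 6, 8 and 3 counts in the controls and 3, 13 and 5 counts in the libraries labelled as elt-2 RNAi and was not tested. Of the 7 genes for dafachronic acid synthesis and its receptor, 3 were tested and 0 were called by edgeR with TMM scaling or by DESeq2, with 0 at an unadjusted p under 0.05. On the scale of library size alone, where 52.3% of all tested genes were called lower, 2 of the 3 were called lower. Of 7 heme transport genes, 5 were tested and 1 was lower, hrg-3, at 5.65, 4.67 and 12.6 CPM against 0.776, 3.56 and 0.349 CPM (log2 change -2.28 ± 0.81, edgeR adjusted p = 0.0876). On that scale 3 heme transport genes were lower, and without elt-2 RNAi A or C edgeR called 0, also at an unadjusted p under 0.05. In 4 of the 5 tested with all 6 libraries, control B was the lowest control and elt-2 RNAi B the highest of its group.

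Other enzyme families of detoxification differed in their counts of calls, and no test of the difference from the cyp genes was made. Of 37 tested UDP-glucuronosyltransferase genes (ugt) 3 were lower (8.11%) and 0 higher, with a median log2 change of -0.34. Over all tested genes 15.9% were lower and 13% higher. Of 19 tested glutathione S-transferase genes (gst) 0 were lower and 6 higher (31.6%), with a median of 0.99. Scaled by library size alone, 21 ugt genes were lower and 0 higher, and 5 gst genes were lower and 4 higher. Of all tested genes 52.3% were lower and 3.84% higher on that scale. When elt-2 RNAi A was left out, edgeR called 0 ugt genes (4 lower and 1 higher at an unadjusted p under 0.05), and without elt-2 RNAi C it called 0 (3 lower and 0 higher). Of 5 flavin monooxygenase genes (fmo) 2 were lower and 0 higher, with a median of -0.14. With TMM scaling and all 6 libraries, the 0 counts among ugt, gst and fmo genes were also 0 at an unadjusted p under 0.05 and with DESeq2. Control B was lowest and elt-2 RNAi B highest of their groups in 17 of the ugt genes (45.9%) and 9 of the gst genes (47.4%). Both shares lay above the 20.1% of all tested genes, as that of the cyp genes did.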

How the data were processed

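Poly-A RNA of 6 whole-worm cultures was sequenced by 3SEQ. The deposited table holds the authors' raw counts of uniquely mapped reads for each gene, and the submitters' processing notes name Bowtie 0.12.7. The counting program, genome build, annotation and use of strand are not given in the sources used here. The study scaled counts to the fraction of all uniquely mapped reads and used a rank product at a 10% false discovery rate. Here counts were tested with edgeR 4.0.16 (R 4.3.3; filterByExpr, TMM, quasi-likelihood, group as the only term, Benjamini-Hochberg adjusted p under 0.1 over all tested genes), after tests on simulated data, in which few changed genes were recovered at the spread of these libraries and false calls ran above the nominal rate. CPM used TMM-scaled library sizes.

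Sequence names were paired with symbols in Ensembl release 115 (WBcel235), where 19081 of 19512 names matched. Coordinates are from that annotation. The members, lists and tests were chosen with earlier results of these data known. Named genes were called members, the 6 most abundant, the most abundant tested member of each subfamily of 3 or more, a list of members with known roles, and called partner genes. Exceptions are named as such. Neighbours start within 10 kb. Alternatives were DESeq2 1.42.0, scaling by plain library size, scaling by a library size that leaves out the 3% most abundant genes, no filter, a minimum of 10 counts in every library, the replicate letter as a block, leaving out libraries, and an adjusted p under 0.05. A search of promoters for motifs was not run. p-values measure the spread between the 3 cultures of each group. Total counts were 16568515 to 35047530 per library, but counting precision rested on the counts of each gene. Their median over tested genes was 250 in control A, with the fewest total counts, and 61 in elt-2 RNAi C, with the most.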

Additional observations from a re-analysis of the deposited data

How the results depend on the processing

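The numbers of members called lower and higher (3 and 3) were 18 and 0 with library size alone, 7 and 1 without the most abundant 3% of genes, 7 and 1 without both B libraries, and 1 and 1 at an adjusted p under 0.05. With the replicate letter as a block edgeR called 0 and 1 (2 and 2 at an unadjusted p under 0.05), but the letters did not pair the libraries, since deviations correlated at -0.207, -0.571 and -0.098 for A, B and C. With DESeq2 (4 and 4), no filter (3 and 2) and 10 or more counts in every library (3 and 3) the numbers were within 1.5 times. Leaving out 1 library gave 0 to 5 lower and 0 to 3 higher. The shares of all tested genes called were counted for the main fit (15.9% lower and 13% higher) and for library size alone (52.3% and 3.84%). They were not counted for the other fits, so the numbers there cannot be read as particular to the cyp genes. The median log2 fold change of -0.86 was -2.54 with library size alone, -1.41 without the most abundant genes, -0.11 with 10 or more counts in every library and -1.29 without both B libraries, and -1.06 to -0.57 without 1 library. The median of all tested genes was -0.12 in the main fit. In the same order it was -1.76, -0.65, -0.07 and -0.22. The gap between the medians was -0.74 in the main fit and -0.78, -0.76, -0.04 and -1.07 in those fits. The log2 fold change of cyp-33C3 reversed to -0.25 with library size alone. That of elt-2 stayed above 0, at 2.80 to 5.24 without 1 library. The causes were not tested. The filter on low counts left 46 of 72 members untested, and 25 members had 10 counts or fewer.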

Other observations

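Of the 4 pseudogenes that RefSeq names as cyp genes and that have a row, C01F6.3 had counts and the other 3 (F14H3.13, T10B9.6 and F42A6.4) had 0 in every library. At the annotated overlap of cyp-43A1 on chromosome X with C41G11.1 on the other strand, cyp-43A1 was at 1.16, 0.48 and 1.28 CPM in the controls and at 0.582, 0.524 and 0.407 CPM in the other group, with no call, while C41G11.1 was lower, at 28.4, 18.5 and 6.04 CPM against 2.18, 5.24 and 3.26 CPM (log2 change -2.31, edgeR adjusted p = 0.0438). Among all 72 members, 8 overlap another gene, and 5 of these were tested.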
